A study of Mus musculus with 4 samples.

Results

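The insulin-like growth factor (IGF) system was followed across microglia-labelled isolates from mouse embryos. Its members were chosen by name from the count table as the 9 genes Igf1, Igf2, Igf1r, Igf2r, Igfbp2, Igfbp3, Igfbp4, Igfbp5 and Igfbp7, out of 26051 features with counts. They comprise 2 ligands, 2 receptors and 5 binding proteins, and all 9 passed the filter on low counts that left 15840 genes for testing.

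RNA sequencing measured polyadenylated transcripts of microglia, the resident macrophages of the brain, taken at embryonic day 14. Hat1, a histone acetyltransferase, had been deleted in microglia by Cre recombinase acting on loxP sites. The ko group holds libraries 1 and 3 and the ff group libraries 2 and 5, so n = 2 in each. The labels give no Cre driver, no strain and no deleted exons, and do not spell out ff, which served as the comparison group. They do not say whether a library came from 1 embryo or a pool, so every p-value measures the spread between these 4 libraries. That spread may be technical in ff. The ko libraries differed in sex-linked transcripts, given below, and so came from different embryos or pools.

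IGF ligands are secreted peptides that act through Igf1r, a receptor tyrosine kinase that signals by phosphoinositide 3-kinase and Akt. Igf2r, also the cation-independent mannose 6-phosphate receptor, carries Igf2 to lysosomes instead of signalling growth. IGF binding proteins hold the ligands outside cells and set how much of them reaches the receptor. In the developing brain, microglia are a known source of Igf1 for neural cells, whereas Igf2 is best known from meninges, vessels and choroid plexus.

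Promoter sequences are shown for Igf1 and Igfbp2, because these are the called member and the member with the largest fold difference. Each window runs from 250 bases before to 50 bases after an annotated start, on the plus strand of GRCm38, and comes from RefSeq. The counts were made on GRCm39, so the coordinates place the sequence and not the reads. Capitals mark GGGCGG, the GC box bound by Sp1-type factors, and TATAAA, both searched on both strands with overlaps counted.
Igf1 (chr10:87860861-87861160): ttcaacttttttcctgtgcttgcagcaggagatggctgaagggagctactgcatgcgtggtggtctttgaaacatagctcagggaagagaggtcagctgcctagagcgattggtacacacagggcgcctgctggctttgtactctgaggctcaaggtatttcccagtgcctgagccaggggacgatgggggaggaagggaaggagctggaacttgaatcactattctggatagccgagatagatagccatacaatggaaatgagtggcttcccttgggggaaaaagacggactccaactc
Igfbp2 (chr1:72824230-72824529): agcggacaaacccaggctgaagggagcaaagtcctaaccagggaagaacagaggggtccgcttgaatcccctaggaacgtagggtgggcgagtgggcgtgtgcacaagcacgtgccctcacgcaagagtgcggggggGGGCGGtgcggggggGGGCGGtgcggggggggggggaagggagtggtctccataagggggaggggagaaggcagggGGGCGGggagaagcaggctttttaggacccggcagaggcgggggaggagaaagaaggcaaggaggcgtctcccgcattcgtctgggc

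The Igfbp2 window held 3 matches to GGGCGG and a GC content of 67.0%, against 0 matches and 52.3% in the Igf1 window. Igfbp2 has a further annotated start, whose window (chr1:72825137-72825436) held 0 matches at a GC content of 57.3%. Of all 32851 windows of this length in the table, 35.7% held GGGCGG and 13.6% held TATAAA, and the median GC content was 52.7%. Neither the Igf1 window nor the Igfbp2 windows held TATAAA. Among the 9 members this motif was found in Igfbp4, with 1 match. These matches describe the letters in the windows and not binding.

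Library totals ran from 14814846 to 18990917 counts, and levels are given as CPM, the count scaled to the library's size. For Hat1 itself, ff libraries 2 and 5 held 650 and 1149 counts, against 737 and 581 in ko libraries 1 and 3. On the CPM scale these were 44.3 and 71.4 against 39.2 and 36.6. Both ko libraries thus lay below both ff libraries, as in 23.8% of all tested genes. The log2 fold change of Hat1, ko minus ff throughout, was -0.61 ± 0.23 (SE; adjusted p = 0.298 by edgeR). Since the deleted exons are not named, a count over the whole gene is a partial check of the labels. Ko library 1 had 3188 counts of the Y-linked gene Ddx3y, where the other 3 libraries had 0, and 3 counts of Xist, where they had 2847 to 3986. This is a male pattern in ko library 1 and a female one in the other 3. Sex was thus not balanced between the groups, and its part in the differences below was not tested. Defining microglial genes were present, with Csf1r at 7045 ± 214.7 CPM in ff and P2ry12 at 952.1 ± 34.6 (SD, n = 2). Mrc1, a marker of macrophages at the brain's borders, was at 6978 ± 593.6 CPM in ff, and which cells carried it was not tested. The neural progenitor markers Slc1a3 and Ptprz1, the most abundant of their list, were at 500.6 ± 105.3 and 452.3 ± 93.0 CPM in ff. Levels varied widely within that list. Fabp7 and Hes5 were at 167.7 and 87.8 CPM in ff, but Pax6, Emx2 and Sox2 at 5.94, 2.85 and 0.453. The isolates may thus not have held microglial transcripts alone. In such bulk RNA, fewer cells of a type and less RNA per cell cannot be told apart.

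Of the 9 members only Igf1 passed the threshold, and it fell in the ko libraries. No member rose past it. Igf2, Igfbp2, Igfbp4 and Igfbp7 were higher in both ko libraries than in either ff library, and Igf1, Igf1r and Igfbp5 were lower in both, while Igf2r and Igfbp3 overlapped. The threshold was an adjusted p of 0.05 in edgeR's quasi-likelihood test with Benjamini-Hochberg adjustment over all genes tested. Over all genes 1.7% passed it, 1.19% as higher and 0.518% as lower. At an unadjusted p of at most 0.05 there were 2 higher members (Igfbp2 and Igfbp7) and 2 lower ones (Igf1 and Igf1r), where 16.2% of all genes reached it. Groups lay apart in 7 of 9 members, where 49.6% of all tested genes did so, with 25.8% of all genes higher in both ko libraries and 23.8% lower. The median log2 fold change was 0.27 over the members and 0.01 over all tested genes.

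**Figure D1:**
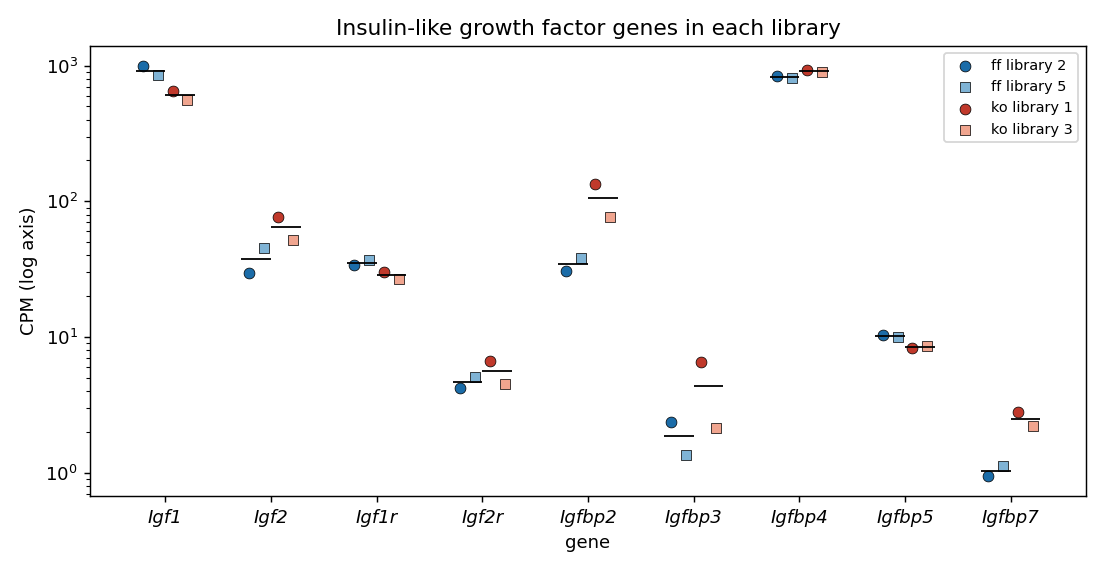
CPM of the 9 genes in each of the 4 libraries on a log axis, with black lines at the mean of each group (n = 2). Igf1 and Igfbp4 sit above all other members, and ko library 1 holds the highest point of Igf2, Igf2r, Igfbp2, Igfbp3, Igfbp4 and Igfbp7.

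Igf1, the ligand that signals through Igf1r, was among the most abundant transcripts of these isolates. Ff libraries 2 and 5 held 14451 and 13623 counts of it, against 12293 and 8884 in ko libraries 1 and 3. On the CPM scale these were 985.3 and 846.1 in ff against 654.5 and 560.2 in ko. Both ko libraries lay below both ff libraries, and the libraries of a group differed by 1.16 times in ff and 1.17 times in ko. The mean fell from 915.7 ± 98.4 to 607.3 ± 66.7 CPM (SD, n = 2 each), so ff exceeded ko 1.51-fold. The log2 fold change was -0.59 ± 0.11 (SE; 95% interval -0.84 to -0.34; adjusted p = 0.0436 by edgeR). Igf1 stood above 99.1% of tested genes in mean CPM.

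The call on Igf1 lay close to the threshold. It was lost without ff library 2, the library with the highest Igf1, where the log2 fold change was -0.48 (adjusted p = 0.0796). It was also lost by limma-voom (adjusted p = 0.0595), with a filter of 50 counts in 2 libraries (0.0505) and with a length and GC offset (0.0503). Igf1os, a transcript annotated antisense to Igf1, had 96, 80, 106 and 86 counts in the same order of libraries and a log2 fold change of -0.055. The strand setting of the counting is not given in the sources used here, so reads of the overlapping pair may not be separated, but the antisense counts were small beside those of Igf1.

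Some markers of cell types that can carry Igf1 passed the threshold, in both directions, while their sums, which were not tested, were lower in the ko libraries. As higher and lower, 2 and 1 of 14 homeostatic, 2 and 1 of 12 axon tract-associated and 0 and 1 of 12 border-associated genes passed. Over all tested genes these shares were 1.19% and 0.518%. The lists were chosen with earlier results of these data known. The 12 genes of axon tract-associated microglia, an Igf1-expressing state known from early postnatal white matter, summed to 11550 and 13680 CPM in ff and to 10630 and 7828 in ko, without Igf1 itself. In that list Itgax, an integrin subunit, fell with a log2 fold change of -0.95 ± 0.15, and the galectin genes Lgals1 and Lgals3 rose by 0.47 each, while the other 9 did not pass. Spp1, the secreted phosphoprotein that leads this sum, had 9203 ± 1152 CPM in ff and 5897 ± 1644 in ko, with an adjusted p of 0.301. The border-associated macrophage sum was 23130 and 20440 CPM in ff and 15830 and 17950 in ko, and 1 of its 12 genes, the scavenger receptor Cd163, fell. The homeostatic microglia sum of 14 genes was 12690 and 12560 CPM in ff and 11240 and 10740 in ko, with the fractalkine receptor Cx3cr1 lower and Tmem119 and Selplg higher past the threshold. Median log2 fold changes were -0.272 for the border-associated list, -0.002 for the axon tract-associated list and 0.035 for the homeostatic one. Groups lay apart as lower in 8 and as higher in 0 of the 12 border-associated genes. These counts were 4 and 2 of 12 for the axon tract-associated list and 2 and 6 of 14 for the homeostatic one. Over all tested genes, 23.8% lay apart as lower and 25.8% as higher. The calls on Selplg, Lgals1 and Lgals3 were lost without ff library 2 and with the length and GC offset. None of these listed markers was at 0 in all libraries. Relative to the ff mean, Igf1 stood at 0.715 in ko library 1 and 0.612 in ko library 3, and the border macrophage sum at 0.727 and 0.824. Their part in the Igf1 difference was not tested.

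Igf2, the ligand expressed from the paternal allele and active mainly before birth, differed in the other direction without passing the threshold. Its counts were 438 in ff library 2, 732 in ff library 5, 1432 in ko library 1 and 830 in ko library 3. These came to 29.9 and 45.5 CPM against 76.2 and 52.3 CPM. The ko libraries were above the ff libraries, but ff library 5 and ko library 3 stood close together. The log2 fold change was 0.77 ± 0.29 (SE), with a 95% interval of -0.01 to 1.55 and an adjusted p of 0.311. DESeq2 gave an adjusted p of 0.0159 for a fold change of the same size. Leaving out ko library 1 gave a log2 fold change of 0.46 (adjusted p = 0.0193), and leaving out ff library 2 gave 0.50 (adjusted p = 0.815).

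The count ratio of Igf1 to Igf2 within a library was 33.0 and 18.6 in ff and 8.58 and 10.7 in ko. The groups did not overlap in this ratio, which follows from Igf1 being lower and Igf2 higher in both ko libraries. The 2 ff libraries themselves differed more than the 2 ko libraries. No p is given for this ratio, because the smallest that exact permutation allows between 2 and 2 libraries, two-sided, is 0.333. Both ligands together summed to 1015 and 891.6 CPM in ff and to 730.7 and 612.5 in ko.

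Igf1r, the signalling receptor, was measured at a modest level and lay lower in both ko libraries. Its counts were 498 and 592 (ff) against 568 and 423 (ko), which came to 33.9 and 36.8 CPM against 30.2 and 26.7. The log2 fold change of -0.31 ± 0.12 (SE) had a 95% interval of -0.59 to -0.04 and an adjusted p of 0.261, so it did not pass over all genes. Igf2r, the clearing receptor, was low throughout, with counts of 62 and 82 (ff) against 126 and 72 (ko). Its groups overlapped, and its log2 fold change of 0.27 (95% interval -0.38 to 0.93) turned to -0.05 without ko library 1.

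Igfbp2, a binding protein of fetal tissues and cerebrospinal fluid, showed the largest fold difference of the members but did not pass the threshold. Its counts were 447 in ff library 2, 614 in ff library 5, 2538 in ko library 1 and 1216 in ko library 3. On the CPM scale these were 30.5 and 38.1 against 135.1 and 76.7. Both ko libraries lay above both ff libraries, and the ko libraries differed from each other by 1.76 times. The mean was 34.3 ± 5.42 CPM in ff against 105.9 ± 41.3 for ko (SD, n = 2), or 3.09-fold. The log2 fold change was 1.63 ± 0.34 (SE), with a 95% interval of 0.67 to 2.59 and an adjusted p of 0.169 by edgeR, against 0.00612 by DESeq2. With ko library 3 as the lone ko library the log2 fold change was 1.15 (adjusted p = 1.61e-15), and with ko library 1 alone it was 1.97 (adjusted p = 1.58e-07). Those fits assume that the lone ko library varies like the ff libraries. Without ff library 2 or 5 the adjusted p was 0.866 or 0.613, at log2 fold changes of 1.47 and 1.77.

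Igfbp4, an inhibitory binding protein that is cut by the protease Pappa, varied least across the libraries. Its counts were 12373 and 13128 (ff) against 17317 and 14218 (ko), or 843.6 and 815.4 CPM against 921.9 and 896.5. The groups did not overlap, yet the difference was small, with a log2 fold change of 0.13 ± 0.07 (SE), a 95% interval of -0.03 to 0.29 and an adjusted p of 0.393. Set against Igf1 in the same library, the count ratio of Igfbp4 to Igf1 was 0.856 and 0.964 in ff and 1.41 and 1.60 in ko. Both ko libraries were above both ff libraries in this ratio. That follows from the single genes, as Igf1 was lower and Igfbp4 higher in both ko libraries. The ratio serves to compare libraries and not genes, since counts grow with transcript length.

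The other 3 binding proteins were scarce. Igfbp3, the main carrier of IGFs in blood, had counts of 35 and 22 (ff) against 123 and 34 (ko), so its groups overlapped and ko library 1 stood apart. Its log2 fold change of 1.23 ± 0.59 (adjusted p = 0.370 by edgeR) was 0.19 without ko library 1. Igfbp7, a distant relative with weak affinity for IGFs that is found in vessels, had counts of 14 and 18 (ff) against 53 and 35 (ko). Its groups lay apart, with a log2 fold change of 1.27 ± 0.40, a 95% interval of 0.35 to 2.20 and an adjusted p of 0.190. Igfbp5, which binds IGFs and matrix, had counts of 152 and 161 (ff) against 157 and 136 (ko), and its log2 fold change of -0.27 had a 95% interval of -0.70 to 0.16. Summed over the 4 binding proteins other than Igfbp4, the level was 44.2 and 50.6 CPM in ff and 152.8 and 89.6 in ko, most of it Igfbp2.

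**Figure D2:**
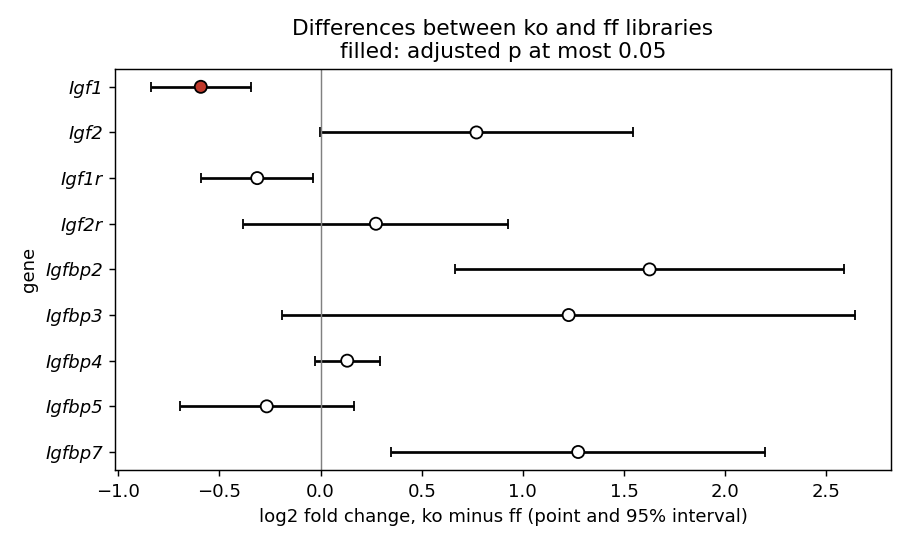
Log2 fold change of each of the 9 genes, ko minus ff, from edgeR with its 95% interval (2 libraries in each group), where a filled point has an adjusted p of at most 0.05. Igf1, at -0.59, is the filled point, and the widest interval, from -0.19 to 2.64, belongs to Igfbp3.

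Levels can be set between genes only per length, here as CPM per kilobase of the longest GENCODE transcript of each gene. In ff, Igfbp4 stood first at 216.5 CPM per kilobase, followed by Igf1 at 129.8, Igfbp2 at 26.2, Igf2 at 7.97, Igf1r at 3.10 and Igfbp5 at 1.69. These 6 genes were apart from their neighbours in both ff libraries, whereas Igfbp7 (0.863), Igfbp3 (0.775) and Igf2r (0.524) overlapped in turn. In ko, Igfbp4 was at 237.3 CPM per kilobase, and Igf1 at 86.1 overlapped Igfbp2 at 81.0. Igf2 at 13.6 and Igf1r at 2.50 were each apart from the gene above. Igfbp7, Igfbp3 and Igfbp5 followed at 2.10, 1.80 and 1.41, each overlapping the gene above it. A shorter transcript in use would raise a gene's value, and the transcript of Igf1 used here was 7.05 kilobases long.

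The other binding proteins, carriers and proteases of the system were mostly scarce. Of 9 listed genes 3 (Htra1, Igfbpl1 and Igfals) were tested and 0 passed, where 1.7% of all tested genes did. Htra1, a secreted serine protease that can cut IGF binding proteins, had counts of 733 and 1097 (ff) against 1817 and 1811 (ko). Its groups lay apart, at 59.1 ± 12.8 CPM and 105.5 ± 12.35 (SD, n = 2 each), with a log2 fold change of 0.83 ± 0.16 and an adjusted p of 0.0851 by edgeR against 7.21e-05 by DESeq2. Igfbpl1, a related gene of neural progenitors, had 55 and 68 counts against 110 and 90. Igfbp6 was not tested, with 7 counts in each library but ko library 1, which had 51. Pappa had at most 4 counts in a library, and Igfals, the subunit that joins Igfbp3 and Igfbp5 in blood, 10 to 21.

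Downstream of the receptors, 21 genes of the phosphoinositide 3-kinase, Akt, mTOR and Foxo branch are reported. The groups lay apart as higher in 9 of them and as lower in 6, where 25.8% and 23.8% of all tested genes did so. The median log2 fold change of the branch was 0.06. The most abundant were Rps6 and Gsk3b. Rps6, a ribosomal protein phosphorylated downstream of mTOR, was at 372.9 and 419.5 CPM (ff) against 534.6 and 490.8 (ko), a log2 fold change of 0.37 ± 0.09 (SE; adjusted p = 0.0965 by edgeR, 0.0338 by DESeq2). With the length and GC offset it was 0.20 (adjusted p = 0.326). Gsk3b, a kinase that Akt inhibits, was at 414.9 and 341.2 CPM (ff) against 305.6 and 246.7 (ko), a log2 fold change of -0.45 ± 0.14 (SE; adjusted p = 0.194 by edgeR, 0.0266 by DESeq2). The groups of both genes did not overlap, and neither passed by edgeR. Ribosomal protein genes have many pseudogene copies, so counts of Rps6 depend on how shared reads were treated. Foxo3, a transcription factor that Akt holds out of the nucleus, came close at 16.1 CPM in ff and 25.6 in ko (adjusted p = 0.0531), a gene chosen after its value was seen. Of 15 tested genes listed for the insulin receptor family and its signalling partners 0 passed, where 1.7% of all tested genes did. Their median was -0.05. Shc1 and Ptpn1, the most abundant of these, had log2 fold changes of -0.05 and -0.21. Irs1, the substrate that links Igf1r to phosphoinositide 3-kinase and also named after its value was seen, had 22.6 CPM in ff and 14.8 in ko (adjusted p = 0.162).

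Genes tied to Igf2 and Igf2r were tested as 3 further lists. Of 8 tested imprinted growth genes 0 passed, where 1.7% of all tested genes did. Groups lay apart as higher in 4 of the 8 and as lower in 0, where 25.8% and 23.8% of all tested genes did so. The median log2 fold change of the 8 was 0.32. The most abundant, Gnas and Meg3, had log2 fold changes of 0.51 and -0.24. With 1 library left out these ran from 0.29 (without ko library 1) to 0.71 for Gnas and from -0.44 to -0.05 (without ff library 2) for Meg3. H19, the noncoding RNA that shares an imprinted domain with Igf2 and was named after its value was seen, had counts of 129 and 106 (ff) against 247 and 168 (ko; adjusted p = 0.230). Igf2bp3 and Igf2bp1, which bind Igf2 messenger RNA, had log2 fold changes of -0.25 and 0.24, and 0 of the 5 tested regulators of that messenger passed. Of 4 genes of mannose 6-phosphate sorting 0 passed, and M6pr, the smaller receptor for that sugar tag, had 393.1 CPM in ff and 386.1 in ko.

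**Figure D3:**
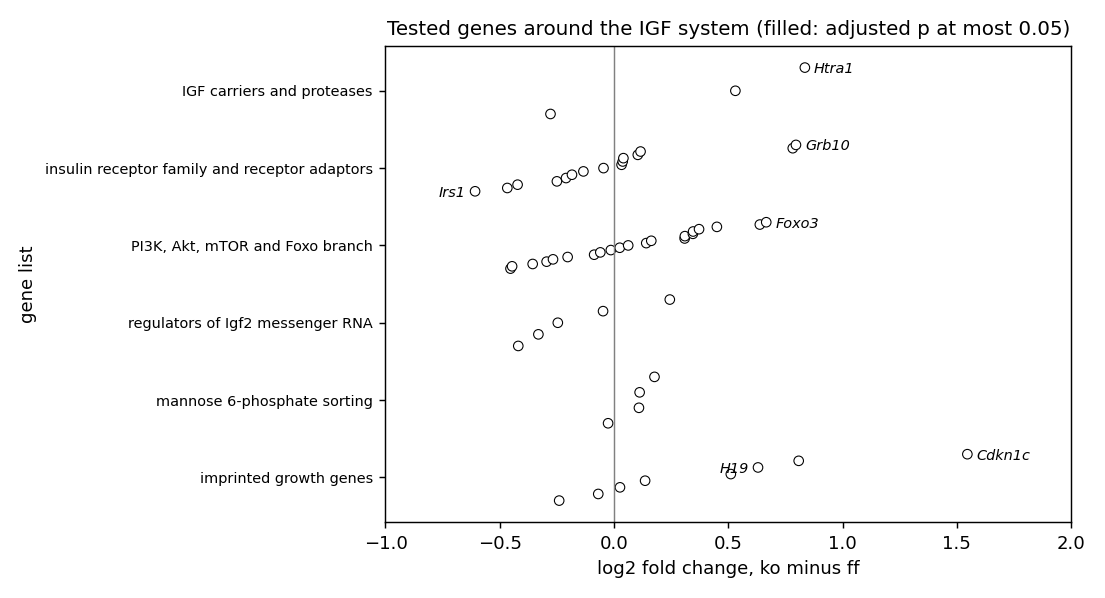
Log2 fold change, ko minus ff, of 56 tested genes in 6 lists around the IGF system, where a filled point has an adjusted p of at most 0.05 by edgeR. The 56 points shown are open, and Cdkn1c, at 1.55, lies farthest to the right.

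The sum of stromal markers had the library order of Igf2 and Igfbp2, but its genes did not share 1 pattern. The mural cell and fibroblast sum was 373.1 CPM in ff library 2, 556.8 in ff library 5, 846.8 in ko library 1 and 627.2 in ko library 3. Ko library 1 was highest and ff library 2 lowest, and ko library 3 lay above ff library 5. This full order was found in 5 of the 14 tested genes of the list (Col1a1, Col1a2, Dcn, Lum and Vtn). Its share over all tested genes was not counted, so the 5 cannot be set against a background. From ff library 5 to ko library 3 the step was 93.6 to 94.6 CPM in Col1a1 and 85.1 to 87.9 in Col1a2, against 68.7 to 93.8 in Vtn. Col3a1 and Foxc1 shared the highest and the lowest library, but their level in ko library 3 was below that in ff library 5. The pericyte gene Rgs5 was instead lowest in ko library 1, at 61.2 CPM, and Cspg4 and Pdgfra were lower in both ko libraries, with log2 fold changes of -0.67 and -0.44. These genes were chosen after their values were seen. Relative to the ff mean this sum stood at 1.82 in ko library 1 and 1.35 in ko library 3, Igf2 at 2.02 and 1.39, and Igfbp2 at 3.94 and 2.23. Of its 14 tested genes 0 passed, where 1.7% of all tested genes did. Col1a1 and Col1a2, collagen genes and the most abundant, had log2 fold changes of 0.75 and 0.85. The median log2 fold change of that list was 0.74, beside 0.01 over all tested genes. None of the listed markers was at 0 in all 4 libraries, and their part in the differences of Igf2 and Igfbp2 was not tested.

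The choroid plexus sum was 54.2 and 53.7 CPM in ff and 64.6 and 48.6 in ko, led by Enpp2 with a log2 fold change of -0.14 and followed by Kcnj13 with 1.26. Ttr, the transthyretin gene that defines this epithelium and was named after its values were seen, had counts of 3 and 1 (ff) against 137 and 13 (ko). Of the 8 tested choroid plexus genes 0 passed. Over all tested genes 1.7% passed, the share to set beside this list and those that follow. The endothelial sum was 57.4 and 83.3 CPM in ff and 71.8 and 120.8 in ko, with 0 of 10 genes past the threshold, and was highest in ko library 3, where no member had its highest value. Cldn5 and Kdr, its most abundant genes, had log2 fold changes of 0.52 and 0.18. Neural progenitor markers summed to 1103 and 1483 CPM in ff and 1081 and 1478 in ko, with 0 of 10 passing and with Slc1a3 and Ptprz1 at -0.02 and -0.09. Neuronal markers summed to 378.7 and 409.8 CPM against 277.4 and 308.1, and Sox11 fell, 1 of 13. Erythroid markers were scarce, at 18.5 to 24.4 CPM in sum, with 0 of 3 passing and with Hba-a1 and Hbb-bs at -0.15 and 0.17.

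**Figure D4:**
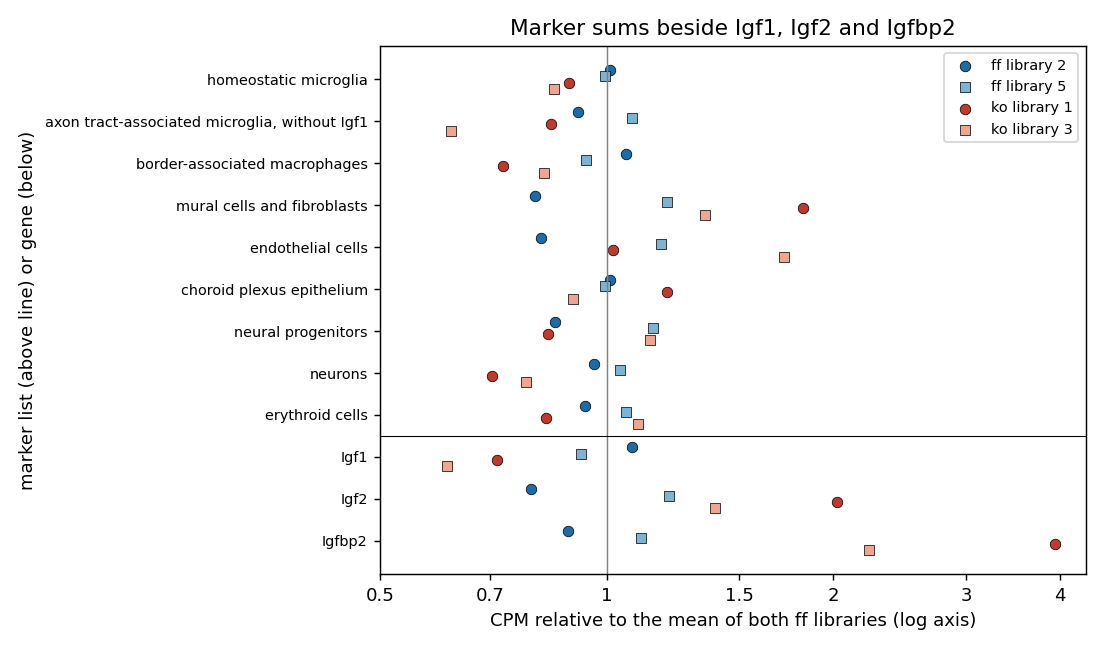
Summed CPM of 9 marker lists and the CPM of Igf1, Igf2 and Igfbp2 in each library, relative to the mean of both ff libraries, on a log axis. The mural cell and fibroblast sum, Igf2 and Igfbp2 share ko library 1 as their highest point, as does the choroid plexus sum. Igf1 and the axon tract-associated, border macrophage, homeostatic microglia and neuron sums lie below 1 in both ko libraries.

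Genes whose levels followed the ligands most closely were found as those with the smallest root mean square difference of centred log2 CPM over the 4 libraries, among 3895 other genes of at least 50 CPM on average. For Igf1 these were Cnnm4, Ptp4a2 and Znrf3, with differences of 0.03, 0.03 and 0.04 on the log2 scale. Ptp4a2, a protein tyrosine phosphatase gene, had 1137 and 957.4 CPM in ff and 759.5 and 671.6 in ko. For Igf2 they were mt-Rnr2, Itm2a and Col1a1, with differences of 0.06, 0.10 and 0.10. The closest, mt-Rnr2, a mitochondrial ribosomal RNA, had 2118 and 3268 CPM in ff and 5141 and 3927 in ko. Col1a1, the third and the collagen chain listed above among fibroblast markers, had 61.8 and 93.6 CPM in ff and 166.4 and 94.6 in ko. The likeness rests on 4 libraries and carries no test.

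**Figure D5:**
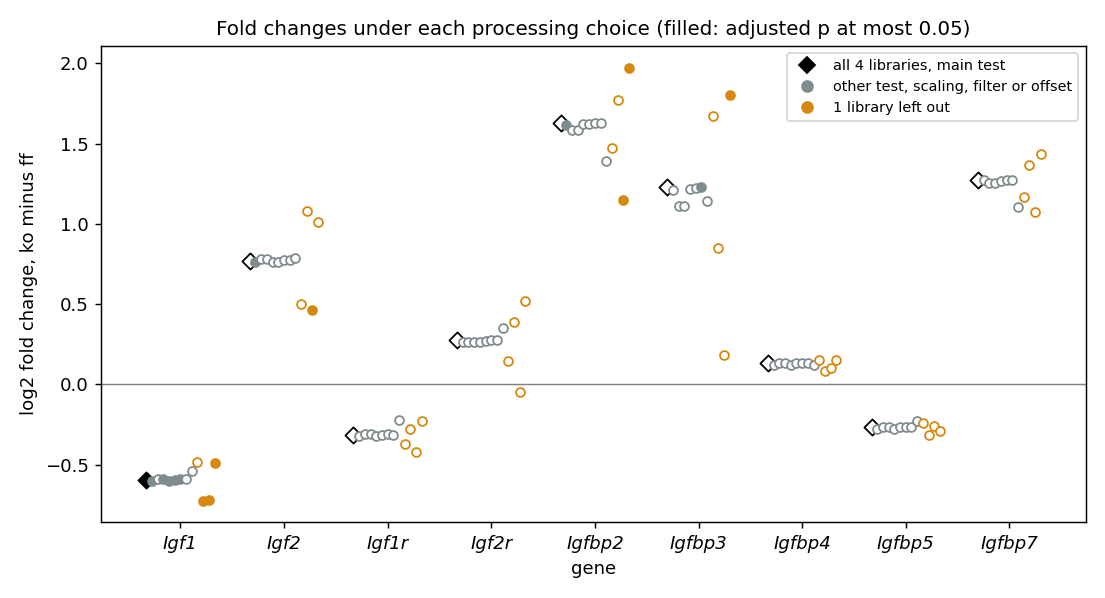
Log2 fold change of each gene, ko minus ff, by the main test (diamond), by other tests, scalings, filters and an offset (grey) and with 1 library left out (orange), where filled symbols have an adjusted p of at most 0.05. Igf1 stays between -0.72 and -0.48, whereas Igfbp3 runs from 0.19 to 1.81 with the library left out.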

How the data were processed

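Poly(A) RNA of 4 libraries was sequenced as 150-bp pairs. Per the submitters' processing notes, HISAT2 2.0.5 was the aligner and GRCm39 the build. Counting tool, strand setting and annotation were not given in the sources used here. Raw counts per gene made by the authors form the deposited table, and 3 lines without counts were left out. Counts were filtered with filterByExpr (15840 genes, 99.85% of counts), scaled by trimmed mean of M-values and compared by edgeR's quasi-likelihood test with robust fitting (edgeR 4.0.16, R 4.3.3) and Benjamini-Hochberg adjustment. The script was tested on simulated data. Alternatives were DESeq2 1.42.0 (the series' own tool, per its design text), limma-voom (limma 3.58.1), other scalings and filters, a length and GC offset (known for 90.8% of tested genes from GENCODE M21) and each library left out. Robust limma-voom was added after the data were seen. CPM values were computed here. Members and lists were chosen with earlier results of these data known. Genes named by rule are the members, every list gene past the threshold or else the 2 most abundant of the list, and the 3 genes most like each ligand. Others, such as Spp1, Mrc1, Csf1r, P2ry12, Igfbp6, Pappa, Igfals and Cdkn1c, were named outside this rule with their values known. Fcrls, Tagln and Igfbp1 were not analysed here. A further gene of the lists is not reported here and is left out of the list counts and the plot.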

Additional observations from a re-analysis of the deposited data

How the results depend on the processing

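No paired analysis was possible because the groups share no replicate number. Over all genes, 270 calls became 566 with DESeq2, 175 with limma-voom, 1386 without a filter, and 198 to 1213 with 1 library left out. Among the members, 1 call became 3 with DESeq2, 0 with limma-voom, 2 without a filter, 0 with the filter of 50 counts, 0 with the length and GC offset, and 0 to 3 with 1 library left out. The cause was not tested. Igf1 kept its direction under all 12 alternatives and passed under 8. It missed the threshold at -0.59 by limma-voom (adjusted p = 0.0595) and with 50 counts (0.0505), and at -0.54 with the offset (0.0503), while robust limma-voom gave 0.0482. With 1 library left out it ranged from -0.72 to -0.48. Igf2 passed at 0.76 with DESeq2 and ranged from 0.46 to 1.08 with 1 library left out. With 1 library left out, values that changed sign ranged from -0.05 to 0.52 for Igf2r (negative without ko library 1), from -0.126 to 0.015 for Shc1 (0.001 without ff library 2, 0.015 without ko library 1), from -0.074 to 0.006 for M6pr (positive without ko library 1) and from -0.063 to 0.586 for Igf2bp1 (negative without ff library 5). Nagpa was at -0.042 with the length and GC offset. Igfbp3 passed without a filter (adjusted p = 0.022) and without ko library 3 (0.00597). Htra1 passed under 5 of 12 alternatives. Selplg, Lgals1 and Lgals3 missed the threshold without ff library 2 (0.136, 0.0527 and 0.106) and with the offset (0.0768, 0.0927 and 0.119), Selplg and Lgals3 also by limma-voom (0.0528 each), and Lgals3 without ff library 5 (0.0617). Fits with 1 library in a group assume that it varies like the other group. Igfbp3 and Igfbp7 had no value with the filter of 50 counts. Counts below about 100 per library limit Igfbp3, Igfbp7 and Igf2r.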
